A study of Mus musculus with 6 samples.

Results

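The 10 genes described here encode transcription factors that specify retinal ganglion cells (RGCs) or mark classes of them. They are given by name, without a threshold on any value, but were picked with earlier results of these samples known, so the shares of all genes set beside them are descriptions only. All 10 were among the 35485 genes listed in each sample: the POU4 family genes Pou4f1, Pou4f2 and Pou4f3, the LIM homeodomain genes Isl1 and Isl2, the EBF genes Ebf1 and Ebf3, the T-box genes Tbr1 and Eomes, and the bHLH gene Atoh7. RNA-seq was performed on whole retinas of wild type C57BL/6 mice at 12 weeks of age, 2 days after the optic nerve was crushed (ONC) or exposed without a crush (sham). In the ONC group forceps closed on the nerve for 10 seconds at 2 mm behind the eye. Each group had 3 samples, and each sample was a pool of RNA from 6 retinas of different mice, so the spread between samples is one between pools and not between animals.

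RGCs are the output neurons of the retina, and their axons form the optic nerve, so a crush injures the axons of these cells while the cell bodies remain in the tissue sampled. In the embryo ATOH7 makes progenitors competent to become RGCs, and ISL1 and the POU4 factors then act on a shared set of ganglion cell genes. In the adult retina POU4 factors remain in RGCs as the standard nuclear markers of these cells, ISL1 is also made by ON bipolar and starburst amacrine cells, EBF factors are also made by amacrine cells, and EOMES and TBR1 mark separate RGC classes.

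Of the 10 genes, 9 had a mean RPKM, the exon reads scaled to exon length and to all reads on genes, above 0.3 and were tested. Atoh7 did not reach that level in either group. Exon reads were compared with edgeR's quasi-likelihood test over 13670 genes, and a gene was called when its Benjamini-Hochberg adjusted p was under 0.1 and its fold change above 1.5. Pou4f2, Pou4f1 and Ebf1 were lower after ONC by this rule, and none of the 9 was higher. These 3 of 9 genes stand against 0.834% of all genes tested that were called lower and 0.827% called higher, 1.66% in all. Isl1, the most abundant of the 9, gave a log2 fold change of -0.02. In whole retina, fewer RGCs and less of a transcript per RGC cannot be told apart.

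All 9 log2 fold changes were below 0, against 47.7% of all genes tested, and 6 of them had an unadjusted p under 0.05, against 8.99% in that direction among all genes. Their median was -0.74, beside a median of 0.01 over all genes. The signs of the values for Isl1 and Pou4f3 depended on how the libraries were scaled: with all reads on genes as the library size, as in RPKM, Isl1 was at 0.10 and Pou4f3 at 0.05. That scaling set the median of all genes at 0.13 and changed the share of lower genes among all calls from 50.2% to 24.9%. The same 3 members were called with it.

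In RPKM, 5 of the 9 tested genes had every ONC sample below every sham sample, against 3.45% of all genes tested. These were Pou4f1, Pou4f2, Isl2, Ebf1 and Ebf3. None of the 9 had every ONC sample above every sham sample, against 25.4% of all genes. The share of genes below depended on the scaling. With exon reads scaled as in the edgeR test, Tbr1 was added, making 6 of the 9, against 10.8% of all genes.

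**Figure D1:**
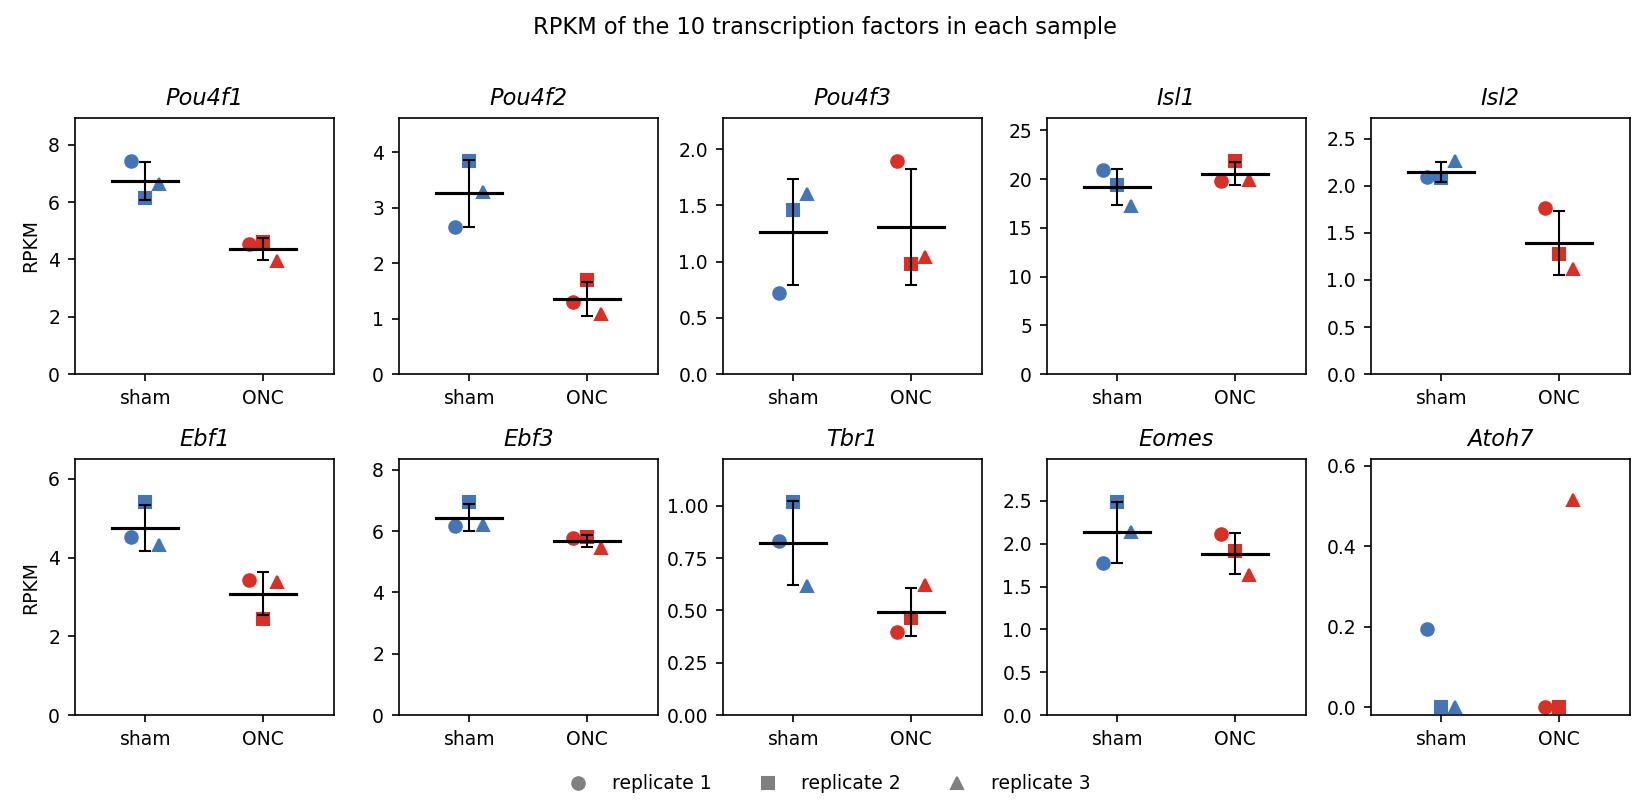
RPKM of each transcription factor in each sample, with a linear vertical axis of its own for each gene. Points are samples, shaped by replicate number, bars are group means and error bars are SD (n = 3), left out for Atoh7. ONC samples lie below all sham samples for Pou4f1, Pou4f2, Isl2, Ebf1 and Ebf3, and overlap them for the others.

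In the sham retina the RPKM of the 10 genes spanned from Isl1 at 19.2 ± 1.87 (SD, n = 3), at percentile 79.1 of all genes tested, down to Atoh7. Pou4f1 at 6.74 ± 0.657 and Ebf3 at 6.44 ± 0.449 came next, with ranges that overlapped. Ebf1 (4.75 ± 0.594) and Pou4f2 (3.26 ± 0.597) followed, and did not overlap each other or their neighbours in the order. Isl2 (2.15 ± 0.11) and Eomes (2.13 ± 0.363) overlapped, as did Pou4f3 (1.26 ± 0.473) and Tbr1 (0.822 ± 0.201). Most of these factors were therefore in the lower part of the range of retinal transcripts, with percentiles of 12.1 for Tbr1, 30.9 for Pou4f2 and 48.6 for Pou4f1.

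After ONC, Pou4f2 went from the fifth to the seventh place in this order and Ebf3 stood above Pou4f1. The summed RPKM of the 10 genes was 44.2 to 48.9 in sham samples and 38.7 to 41.1 in ONC samples, without overlap. Isl1 made up 41% of that sum in sham and 51% in ONC, Pou4f1 14.4% and 10.8%, and Pou4f2 6.97% and 3.37%.

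The promoters of the genes that were called, and that of Tbr1, are shown to compare the sequence around their starts, since these genes encode DNA-binding proteins that can act on one another. The windows are those of RefSeq on GRCm38.p6 and run from 250 bases before the start to 50 after it, on the strand of the gene. Letters in capitals mark a match to one of 5 motifs searched on both strands: TAATTAAT for the POU4 family, CTAATG for ISL and other homeodomain factors, TCCC and GGGA with 2 bases of any kind between them for EBF factors, GGTGTGA for T-box factors and CAGCTG for ATOH7 and other bHLH factors. No match overlapped another. Tbr1 was not called, and its window is one of those that held a match. The window of Isl1 also held a match and is not printed. The Pou4f1 window is chr14:104467950-104468249 and the Pou4f2 window chr8:78436598-78436897, both on the minus strand. The Tbr1 window is chr2:61804203-61804502 on the plus strand. For Ebf1 the second of 2 windows is printed, chr11:44619978-44620277 on the plus strand. The Ebf1 gene model that was counted starts at 44618134, within the first window (chr11:44617850-44618149), which held no match.
Pou4f1: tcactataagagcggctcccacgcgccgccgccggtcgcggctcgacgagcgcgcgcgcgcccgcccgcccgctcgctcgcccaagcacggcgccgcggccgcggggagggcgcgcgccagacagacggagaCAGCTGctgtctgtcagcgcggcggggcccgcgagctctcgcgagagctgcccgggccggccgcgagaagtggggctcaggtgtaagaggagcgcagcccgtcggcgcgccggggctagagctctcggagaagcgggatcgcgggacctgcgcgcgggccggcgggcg
Pou4f2: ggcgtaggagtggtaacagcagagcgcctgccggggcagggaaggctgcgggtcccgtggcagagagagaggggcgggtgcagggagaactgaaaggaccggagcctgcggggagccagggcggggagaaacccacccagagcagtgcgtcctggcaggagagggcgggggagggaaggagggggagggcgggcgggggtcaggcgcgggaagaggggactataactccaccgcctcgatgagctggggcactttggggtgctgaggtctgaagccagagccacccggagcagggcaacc
Ebf1: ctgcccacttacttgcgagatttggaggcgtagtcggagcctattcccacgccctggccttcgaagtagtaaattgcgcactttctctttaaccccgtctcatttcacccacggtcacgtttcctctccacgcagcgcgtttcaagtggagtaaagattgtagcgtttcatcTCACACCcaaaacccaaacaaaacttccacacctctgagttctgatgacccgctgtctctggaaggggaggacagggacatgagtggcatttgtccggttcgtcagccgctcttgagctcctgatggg
Tbr1: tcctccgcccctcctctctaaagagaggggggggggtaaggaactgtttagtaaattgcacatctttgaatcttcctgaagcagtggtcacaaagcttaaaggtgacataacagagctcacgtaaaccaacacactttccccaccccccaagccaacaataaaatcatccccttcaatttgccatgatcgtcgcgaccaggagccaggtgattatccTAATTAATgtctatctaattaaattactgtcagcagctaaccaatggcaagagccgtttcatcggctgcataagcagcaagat

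The Pou4f1 window held CAGCTG, with its first base at -118 from the start, and so did the window of Isl1, at -103. CAGCTG was also present in 16.3% of the 32851 RefSeq windows. The second of the 2 Ebf1 windows, printed above, held the T-box letters on the opposite strand at -78, as did 3.98% of all windows. The Tbr1 window held TAATTAAT at -33, as did 0.852% of all windows. No window of Pou4f2, Isl2, Ebf3, Eomes or Atoh7 held any of the 5 motifs, and neither did the other Ebf1 window. The EBF motif was in 0.904% and CTAATG in 7.36% of all windows. Pou4f3 had no window in the table. The windows of Pou4f1 (78.3% G and C), Ebf3 (77%), Pou4f2 (69.7%), Isl1 (69%) and Isl2 (67.3%) lay above the upper quartile of all windows, 61.7%, while that of Tbr1 was at 46%, that of Eomes at 47.3%, that of Atoh7 at 57% and the 2 of Ebf1 at 36.7% and 53%. The 3 called genes thus had no motif in common here, and a match of letters is not evidence that a factor binds.

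Pou4f2 (Brn3b) drives the differentiation and survival of newborn RGCs and persists in most of them. It lies at chr8:78433009-78436652, in the files' coordinates, which match GRCm38, with 2 exons of 3212 bases in total. Sham replicates 1 to 3 had RPKM values of 2.65, 3.85 and 3.28, and the ONC replicates, in the same order of number, had 1.30, 1.69 and 1.08. Values of other genes are listed in that order too. Every ONC sample was below every sham sample, and the highest ONC value was still below the lowest sham value. The values rested on 196 to 296 exon reads per sham sample and 90 to 135 per ONC sample. Pou4f2 was 2.62-fold lower after ONC (95% interval 1.99 to 3.46), with a log2 fold change of -1.39 (SE 0.19) and an adjusted p of 0.000103 by edgeR's quasi-likelihood test with Benjamini-Hochberg adjustment. It was called in all 18 alternative fits, with log2 fold changes from -1.56 to -0.85.

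Pou4f1 (Brn3a) is made by most RGCs and controls, among other genes, those that shape their dendrites. The gene lies at chr14:104462320-104467999 and has 3 exons of 3801 bases. The sham samples had RPKM values of 7.45, 6.15 and 6.63 and the ONC samples 4.54, 4.61 and 3.94. The groups were apart, with 389 to 437 exon reads in each ONC sample and 560 to 651 in each sham sample. The gene was 1.68-fold lower (95% interval 1.43 to 1.98), a log2 fold change of -0.75 (SE 0.11), with an adjusted p of 0.000289 in edgeR's quasi-likelihood test. The call was lost in 1 of 18 alternative fits, limma on log2(RPKM + 1), where the log2 fold change was -0.53 and so under the fold limit.

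Pou4f3 (Brn3c), the factor of a smaller share of RGCs and of inner ear hair cells, gave no such pattern. Its RPKM was 0.721, 1.46 and 1.6 in the sham samples and 1.90, 0.982 and 1.04 in the ONC samples. The lowest sham sample and the highest ONC sample were the ones that stood apart, and the groups overlapped. The gene, at chr18:42394597-42396093 with 1146 bases of exon, had only 19 to 55 exon reads per sample. The log2 fold change was -0.08 with a 95% interval from -0.97 to 0.81, so a fall as large as that of Pou4f1 was within the interval (adjusted p = 0.951 by edgeR's quasi-likelihood test).

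Within each sample, RPKM ratios of related factors were compared, with 8 ratios in all. The ratio of Pou4f2 to Pou4f1 was 0.356, 0.626 and 0.495 in sham and 0.287, 0.366 and 0.274 in ONC. Sham replicate 1 lay just below ONC replicate 2, so the groups overlapped (log2 difference -0.65, exact permutation test, two-sided p = 0.2, adjusted p = 0.32 over 8 ratios). Without sham replicate 1 the ratios did not overlap and the log2 difference was -0.86. This test has a smallest p of 0.1, so it cannot show a difference at 0.05. The edgeR intervals of the log2 fold changes were -1.79 to -0.99 for Pou4f2 and -0.98 to -0.52 for Pou4f1. They were made for each gene alone, and a difference between these genes was not tested in edgeR. The ratio of Pou4f3 to Pou4f1 was 0.192 ± 0.0824 in sham and 0.298 ± 0.106 in ONC (SD, n = 3, exact permutation p = 0.4, adjusted p = 0.533). Its log2 difference of 0.69 ran from 0.26 without sham replicate 1 to 0.92 without sham replicate 3.

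Isl1 (Islet-1), which works together with POU4F2 in RGC genesis, lies at chr13:116298270-116309688 and has 6 exons of 2526 bases. Its RPKM came to 20.9, 19.4 and 17.2 in the sham samples and to 19.8, 21.9 and 19.9 after ONC. The samples of the groups were intermixed. With 1062 to 1376 exon reads per sample it was the best measured of the 10 genes, and its log2 fold change of -0.02 had a 95% interval of -0.18 to 0.13 (adjusted p = 0.916, edgeR's quasi-likelihood test). The interval did not reach the 1.5-fold limit in either direction.

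Isl2, the other Islet gene, is made by a subset of RGCs that project to the opposite side of the brain. It lies at chr9:55541149-55546178, with 1851 bases of exon. RPKM was 2.09, 2.08 and 2.27 in sham samples and 1.77, 1.28 and 1.12 in ONC samples, so that every ONC sample was below every sham sample. On 54 to 103 exon reads per sample, the log2 fold change of -0.75 was as far from 0 as that of Pou4f1 but had a wider 95% interval, -1.29 to -0.20, and its adjusted p of 0.13 by edgeR's quasi-likelihood test missed the threshold. ONC replicate 1 was the highest of its group, and without it the log2 fold change was -0.98 with an adjusted p of 0.0232, a call. The adjusted p of Isl2 was 0.1 or more in the 5 other fits that left out 1 library. The same held in 15 of all 18 alternatives.

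The ratio of Isl2 to Isl1 was 0.1, 0.107 and 0.132 in sham and 0.0897, 0.0585 and 0.0564 in ONC. All ONC ratios lay below all sham ratios. The log2 difference was -0.75 (two-sided p = 0.1 in an exact permutation test, which is as low as 3 samples against 3 can give, adjusted p = 0.267 over 8 ratios).

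Ebf1 (early B cell factor 1) is required for the normal number and layering of several amacrine and ganglion cell types. It lies at chr11:44618134-45005175, and its 16 exons add up to 2248 bases. Sham samples stood at 4.51, 5.42 and 4.31 RPKM and ONC samples at 3.43, 2.45 and 3.38. The groups did not overlap, and sham replicate 2 and ONC replicate 2 were the extremes. On 137 to 292 exon reads, Ebf1 was 1.67-fold lower (95% interval 1.31 to 2.12), a log2 fold change of -0.74 (SE 0.17) with an adjusted p of 0.0122 in edgeR's quasi-likelihood test. Without sham replicate 2 the log2 fold change was -0.65 and the adjusted p 0.104 in the same test, so the call was narrowly lost. Without ONC replicate 2 the log2 fold change was -0.59, close to the fold limit, with an adjusted p of 0.0803, and the call was kept. The call was also lost in both limma fits.

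Ebf3 is a close paralog of Ebf1 with a similar distribution in the inner retina. Its gene model lies at chr7:137193671-137314445, with 18 exons of 5023 bases. The RPKM values of 6.17, 6.96 and 6.19 in sham and 5.78, 5.82 and 5.45 in ONC did not overlap, but the shift was small. The log2 fold change of -0.30 (95% interval -0.49 to -0.12) had an adjusted p of 0.0666 by edgeR's quasi-likelihood test, and it stayed under the 1.5-fold limit. With Ebf3 included, 4 of the 9 members were below the adjusted p threshold in this direction, against 3.72% of all genes. The adjusted p of Ebf3 was 0.1 or more in 8 of 18 alternatives. By edgeR's quasi-likelihood test it was 0.264 without sham replicate 2, 0.227 without sham replicate 3, 0.171 without ONC replicate 2 and 0.233 without ONC replicate 3.

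The ratio of Ebf3 to Ebf1 was 1.37, 1.28 and 1.44 in sham and 1.69, 2.38 and 1.61 in ONC, with all ONC values above all sham values. ONC replicate 2 had the highest ratio. The log2 difference was 0.45 (exact permutation p = 0.1, adjusted p = 0.267).

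Tbr1, which marks RGC types including cells that respond to light decrements, was the least abundant gene tested. The gene is at chr2:61804453-61814114 with 3977 bases of exon. RPKM was 0.831, 1.02 and 0.616 in sham and 0.397, 0.465 and 0.62 in ONC. The highest ONC sample, replicate 3, exceeded the lowest sham sample, replicate 3, by a small margin. Reads per sample were 60 to 97 in sham and 40 to 64 in ONC. The log2 fold change of -0.85 (95% interval -1.46 to -0.24) had an adjusted p of 0.126 by edgeR's quasi-likelihood test. The DESeq2 Wald test gave 0.0956, and the edgeR fit with no filter on RPKM gave 0.0808, so that Tbr1 passed in both. In 15 of 17 alternatives its adjusted p was 0.1 or more, among them all 6 fits that left out 1 library.

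Eomes (Tbr2) is needed for the intrinsically photosensitive RGCs, which carry melanopsin. Its position is chr9:118478189-118486132, with 3715 bases of exon. RPKM was 1.77, 2.49 and 2.13 in sham and 2.11, 1.91 and 1.63 in ONC. The ranges overlapped. The log2 fold change was -0.30 (95% interval -0.67 to 0.06, adjusted p = 0.405 by edgeR's quasi-likelihood test), and it was not called in any of 18 alternative fits. Opn4, the melanopsin gene itself, had an RPKM of 1.56, 2.6 and 1.64 in sham and 1.31, 1.23 and 1.11 in ONC and was called lower (log2 fold change -0.78, adjusted p = 0.0626 by the same test). The call on Opn4 was lost in 4 of 6 fits that left out 1 library, where the log2 fold change ran from -0.94 to -0.54, the highest without sham replicate 2. The ratio of Eomes to Tbr1 was 2.68 ± 0.698 in sham and 4.02 ± 1.34 in ONC (SD, n = 3, exact permutation p = 0.2, adjusted p = 0.32). Its log2 difference of 0.56 ran from 0.33 without ONC replicate 1 to 0.83 without ONC replicate 3.

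Atoh7, the bHLH factor of RGC progenitors, was near the limit of detection. The sham samples held 2, 0 and 0 exon reads and the ONC samples 0, 0 and 6. The 6 reads correspond to 0.514 RPKM with an exact Poisson interval of 0.189 to 1.12, which covers counting error only. In the samples with 0 reads, a count of 0 allows up to 0.263 to 0.278 RPKM at 3 reads. The gene model in the files, chr10:63100156-63100605, has 450 bases in 1 exon, while RefSeq gives 1496 bases for the span of the gene, so reads on the rest were not counted. The gene failed the filter on RPKM, and in the edgeR quasi-likelihood fit without that filter its log2 fold change was 1.22 with an adjusted p of 0.799.

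**Figure D2:**
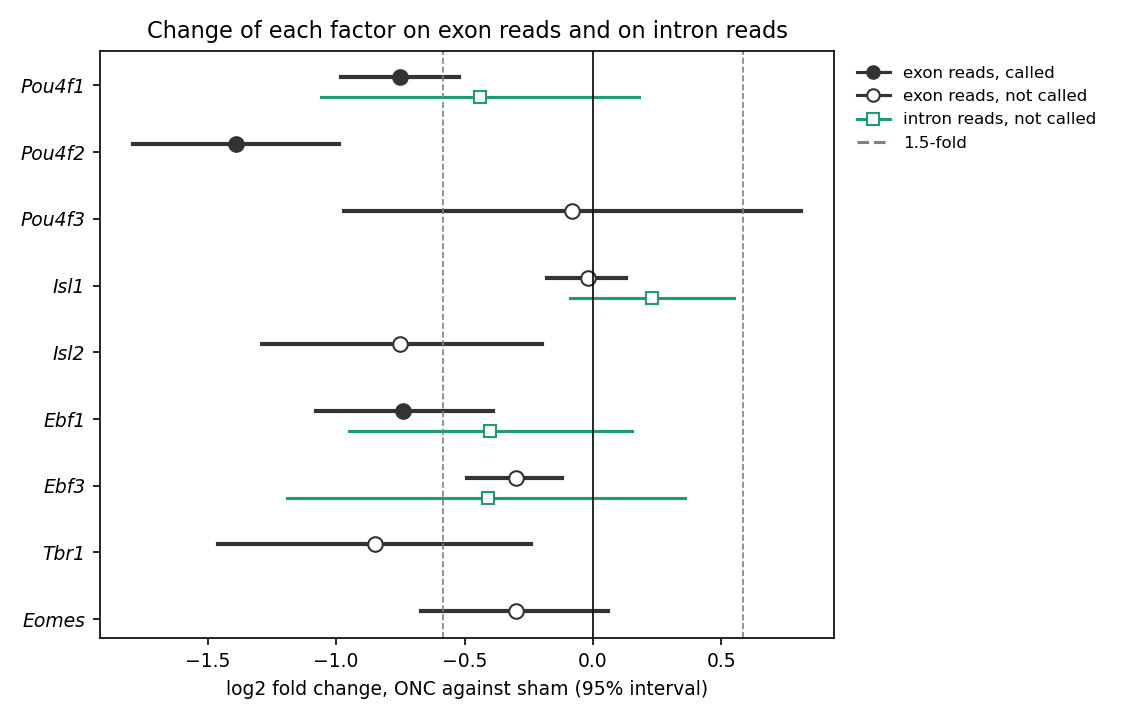
Log2 fold change of ONC against sham with its 95% interval for the 9 tested factors, on exon reads (circles, filled where called) and, for 4 of them, on intron reads (squares). Dashed lines mark 1.5-fold. The exon intervals of Pou4f1, Pou4f2 and Ebf1 lie below 0, as do those of Isl2, Ebf3 and Tbr1, which were not called.

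Reads on introns were taken as reads on the whole gene less those on its exons. They can come from transcripts that are not yet spliced, but their source was not tested. A mean of at least 10 such reads in one group was reached by 4 of the 10 genes, Pou4f1, Isl1, Ebf1 and Ebf3, and 6 had too few. None of the 4 was called in edgeR's quasi-likelihood test over 13821 genes, and none had an unadjusted p under 0.05. Of all genes in that test, 2.16% were called lower and 0.499% higher, 2.66% in all. These shares include 1550 genes with an exon length of 0, where reads cannot be split into exon and intron reads.

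Pou4f1 had 108, 113 and 160 intron reads in sham and 115, 82 and 68 in ONC, and its intron log2 fold change was -0.44 (95% interval -1.06 to 0.18). The intron reads of Ebf1 were 113, 84 and 138 in sham and 67, 70 and 113 in ONC, with a log2 fold change of -0.40 (-0.95 to 0.15). Both point estimates lay between 0 and the change on exons, and both intervals held the exon value as well as 0. Where intron values stand against exon values depends on the scaling. The median intron log2 fold change of all genes was 0.03 here and -0.22 with the library sizes of exon reads. No member was called on intron reads with either. The intron log2 fold change was -0.41 (-1.19 to 0.36) for Ebf3 and 0.23 (-0.09 to 0.55) for Isl1. The library kit did not mark strand, so intron reads of an antisense transcript cannot be told apart from those of the gene, and the model of Ebf3 overlaps that of Gm10578.

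Rbpms, an RNA-binding protein present in RGCs of all types, was taken as one RGC marker to set the members against. Of the other defining RGC markers, Sncg was also called lower, with a log2 fold change of -0.95. Thy1 (-0.22) and Slc17a6 (0.26) were not called. Ratios to these markers were not computed. The RPKM of Rbpms was 9.29, 10.5 and 10.4 in sham and 5.61, 6.62 and 6.41 in ONC. It was called lower (log2 fold change -0.82, SE 0.11, adjusted p = 6.23e-05, edgeR's quasi-likelihood test). The ratio of Pou4f1 to Rbpms was 0.675 ± 0.112 in sham and 0.707 ± 0.0972 in ONC (SD, n = 3, log2 difference 0.07, exact permutation p = 0.7, adjusted p = 0.8). Ebf1 to Rbpms gave 0.472 ± 0.0529 and 0.503 ± 0.122 (log2 difference 0.07, exact permutation p = 0.8, adjusted p = 0.8). For both ratios the sign turned when single libraries were left out, to -0.02 without sham replicate 2 and -0.03 without ONC replicate 1 for Pou4f1, and to -0.03 without sham replicate 3 and -0.09 without ONC replicate 1 for Ebf1.

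The ratio of Pou4f2 to Rbpms was 0.286, 0.367 and 0.315 in sham and 0.232, 0.255 and 0.169 in ONC. All ONC ratios were below all sham ratios. The log2 difference was -0.58 (exact permutation test, two-sided p = 0.1, adjusted p = 0.267 over 8 ratios), and leaving out 1 library moved it between -0.70 and -0.40.

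**Figure D3:**
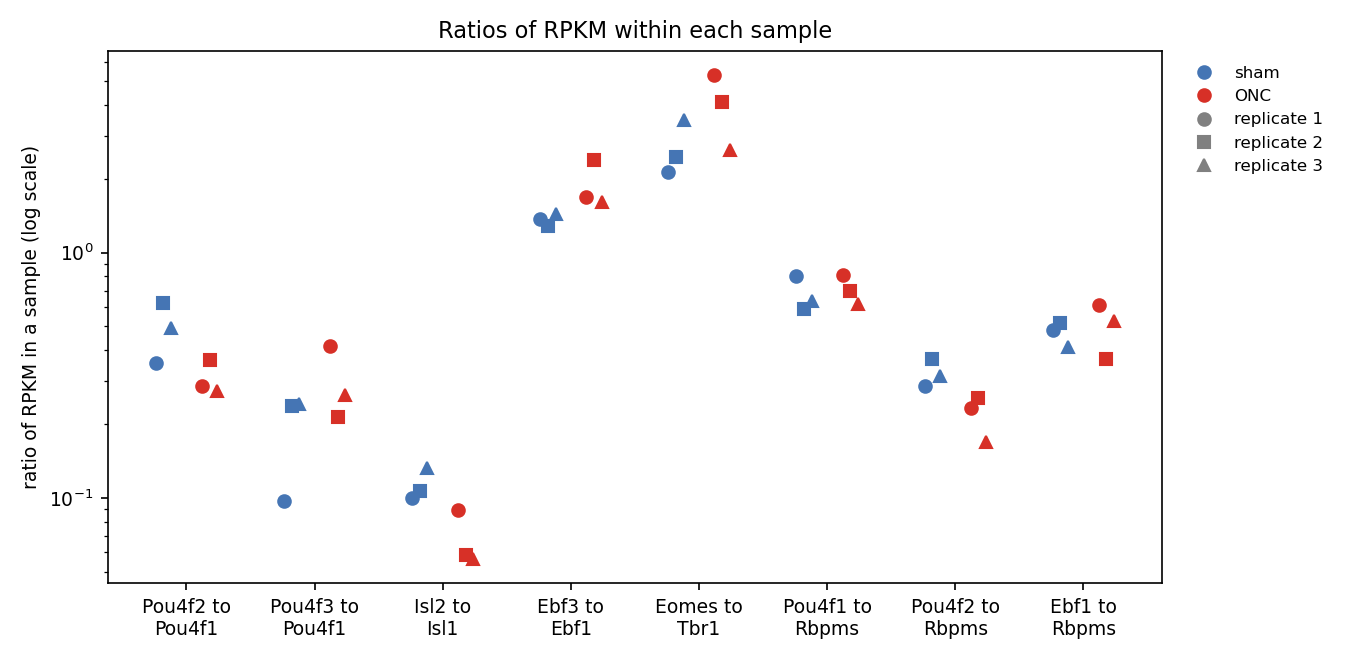
Ratios of RPKM between 2 genes of the same sample, on a log scale, for sham (blue) and ONC (red) samples, shaped by replicate number. The groups are apart for Isl2 to Isl1, Ebf3 to Ebf1 and Pou4f2 to Rbpms and overlap for the other 5 ratios.

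Genes whose values over the 6 samples were most like those of the called members were found as the smallest root mean square difference of centred log2(RPKM + 0.1) among 11798 genes with a mean RPKM above 1. For Pou4f1 these were Caln1, a neuronal calcium-binding protein, at 0.0523, Mmp9, a matrix metalloproteinase, at 0.0698 and Nell2, a secreted neuronal glycoprotein, at 0.0733, where the median gene was at 0.404. Nell2 had 12.1 ± 0.636 RPKM in sham and 7.96 ± 0.702 in ONC (SD, n = 3).

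For Pou4f2 the nearest were Pvalb (parvalbumin, a calcium buffer) at 0.133, Chrna6 (a nicotinic receptor subunit) at 0.164 and Tusc5 at 0.183, with a median of 0.716 over all genes. Both Pvalb and Chrna6 are also in the list of RGC markers below, as is Nell2, named above for Pou4f1. Chrna6 had 35.8 ± 2.12 RPKM in sham and 16 ± 1.05 in ONC, and Pvalb 15.4 ± 1.16 and 6.51 ± 1.03.

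For Ebf1 they were Ssh1, a phosphatase of the actin regulator cofilin, at 0.0388, Cdr1 at 0.0854 and the zinc finger factor Zbtb20 at 0.107, with a median of 0.432. Without strand, reads of Cdr1 cannot be told apart from those of the antisense transcript at that locus. Ssh1 had 5.2 ± 0.686 RPKM in sham and 3.52 ± 0.549 in ONC. These genes were picked for their likeness to the members, so their own change is not a separate result.

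Other gene lists were set beside the members. Among 33 further transcription factors of RGCs, 28 were tested, 2 were called lower and 1 higher, and the median log2 fold change was -0.29. Irx2, an Iroquois homeobox gene, had an RPKM of 1.2, 1.42 and 1.31 in sham and 0.417, 0.457 and 0.548 in ONC. The groups were far apart, with a log2 fold change of -1.59 (adjusted p = 0.00398 by edgeR's quasi-likelihood test). Irx4 gave -1.05 (adjusted p = 0.0168) and lost its call without ONC replicate 2 (-0.89, adjusted p = 0.101). Of the rest of that family, Irx3 was at -0.91 (adjusted p = 0.182) with every ONC sample below every sham sample, Irx1 was under the filter at 0.217 ± 0.101 RPKM in sham and 0.0633 ± 0.0549 in ONC (SD, n = 3), Irx6 was at -0.51 (adjusted p = 0.0529, under the fold limit) and Irx5 at 0.01. Sox11, an SRY-box factor of developing RGCs, was called higher. It rose from 0.448, 0.286 and 0.247 RPKM in sham to 1.69, 2.07 and 2.04 in ONC (log2 fold change 2.45, adjusted p = 4.59e-08), and is also in the list of upstream regulators. Its homolog Sox4 had a log2 fold change of 0.27 (adjusted p = 0.551).

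Among 17 tested regulators upstream of RGC fate, such as Pax6, Neurog2, Notch1 and Shh, none was lower, Sox11 alone was higher, and the median was -0.11. None of 25 partners and cofactors of the members was called, among them the LIM cofactors Ldb1 and Lmo4 and the E proteins that pair with ATOH7, and their median was -0.03. Over all genes tested, 1.66% were called. Hipk2 (-0.41, adjusted p = 0.0258) and the E protein gene Tcf4 (-0.24, adjusted p = 0.0449) passed the adjusted p of edgeR's quasi-likelihood test. Both were under the fold limit.

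Of 23 RGC markers that are not transcription factors, 11 were called lower and 0 higher, with a median of -0.53 and summed RPKM of 826 to 882 in sham and 645 to 664 in ONC. This list was assembled with earlier results of these samples known. Pvalb was at -1.37, Chrna6 and the neurofilament gene Nefh at -1.29, and Sncg (gamma-synuclein) at -0.95. The most abundant of these markers, the neurofilament gene Nefl and Uchl1, were at -0.53 and -0.30, under the fold limit. Thy1 (-0.22, adjusted p = 0.0517) and Slc17a6 (0.26, adjusted p = 0.0525), the glutamate transporter of RGC terminals, stayed under the fold limit by edgeR's quasi-likelihood test. Of 18 RGC subtype markers, 3 were called lower (Trhr, Fstl4 and Opn4) and 3 higher (Adcyap1 at 1.77, Tac1 at 0.89 and Spp1 at 0.67, whose call was lost in 2 of 6 fits without 1 library), with a median of 0.03. The samples were whole retina, so whether RGCs or other cells gave the reads of these subtype markers was not tested. Adcyap1, the neuropeptide PACAP, went from 1.74 ± 0.301 to 6.48 ± 0.891 RPKM (SD, n = 3). Trhr (-1.14), a receptor for thyrotropin-releasing hormone, and Fstl4 (-1.12) had at most 102 and 85 exon reads in any sample, and lost their calls in 4 and 5 of 6 fits without 1 library.

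Lists of other cell types that also use these factors showed few calls. Over all genes tested 1.66% were called, so few or 0 calls do not set lists this short apart from all genes. Isl1 is in the lists of bipolar and ON bipolar cells, where 0 of 9 and 0 of 12 genes were called, with medians of -0.12 and -0.05. Of 14 tested amacrine transcription factors only Ebf1 itself was called, at a median of -0.07, and 0 of 12 amacrine markers were. Tfap2b, an amacrine factor, was at -0.03 and Pax6 at -0.11. No gene was called among 6 horizontal cell markers, 11 photoreceptor transcription factors, 12 rod and cone, 11 Muller glia, 4 astrocyte, 8 endothelial, 8 pigment epithelium, 3 oligodendrocyte and 3 muscle markers. In the glial and muscle lists whose summed RPKM moved without overlap, the log2 fold changes of the 2 most abundant genes were -0.13 for Glul and 0.06 for Apoe (Muller glia), 0.36 for Gfap and 0.21 for S100b (astrocytes), 0.16 for Cnp and -0.17 for Mbp (oligodendrocytes), and 0.50 for Mylpf and -0.42 for Ckm (muscle). None of these was called. Summed RPKM was also higher after ONC without overlap for photoreceptor transcription factors (1636 to 1765 in sham, 1874 to 1965 in ONC), bipolar transcription factors (177 to 196 and 198 to 204) and rod and cone markers. Otx2, at a mean RPKM of 68.8 in sham and 79.8 in ONC, is in both of these transcription factor lists. The bipolar list also holds Neto1, which is not a transcription factor. In RPKM, 25.4% of all genes tested had every ONC sample above every sham sample. The edgeR medians of these lists, in the same order, were -0.02, -0.12 and 0.03, so the rise in the sums depended on the scaling of RPKM. Past the adjusted p but under the fold limit were 2 lower and 1 higher photoreceptor transcription factors, 2 higher rod and cone markers, 2 lower bipolar transcription factors, 2 lower amacrine markers, and 2 lower and 1 higher horizontal cell markers. So were the amacrine transcription factors Ebf3 and Barhl2, both lower (Barhl2 at -0.46, adjusted p = 0.0554 by edgeR's quasi-likelihood test).

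Of 12 microglia and macrophage markers 4 were called higher and 0 lower, and the summed RPKM of the list was 21 to 23.8 in sham and 36 to 39.9 in ONC. C1qb, a complement subunit, was at 0.81 and was called in all 18 alternatives, while C1qa (0.59) and Itgam (0.76) lost theirs in 4 and 5 of 6 fits without 1 library. Cd68, a lysosomal protein of phagocytes, was at 1.5, on 10 to 85 exon reads per sample, with RPKM groups that overlapped, and its call was not followed through the alternatives. Of 5 lens markers Cryaa was called higher, at 1.32, with a sham mean of 9.24 ± 9 RPKM (SD, n = 3) and a call lost in 3 of 6 fits without 1 library, and the summed lens level was 8.31 to 63.9 in sham and 62 to 81.9 in ONC. The part of these shifts in the results on the members was not tested.

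**Figure D4:**
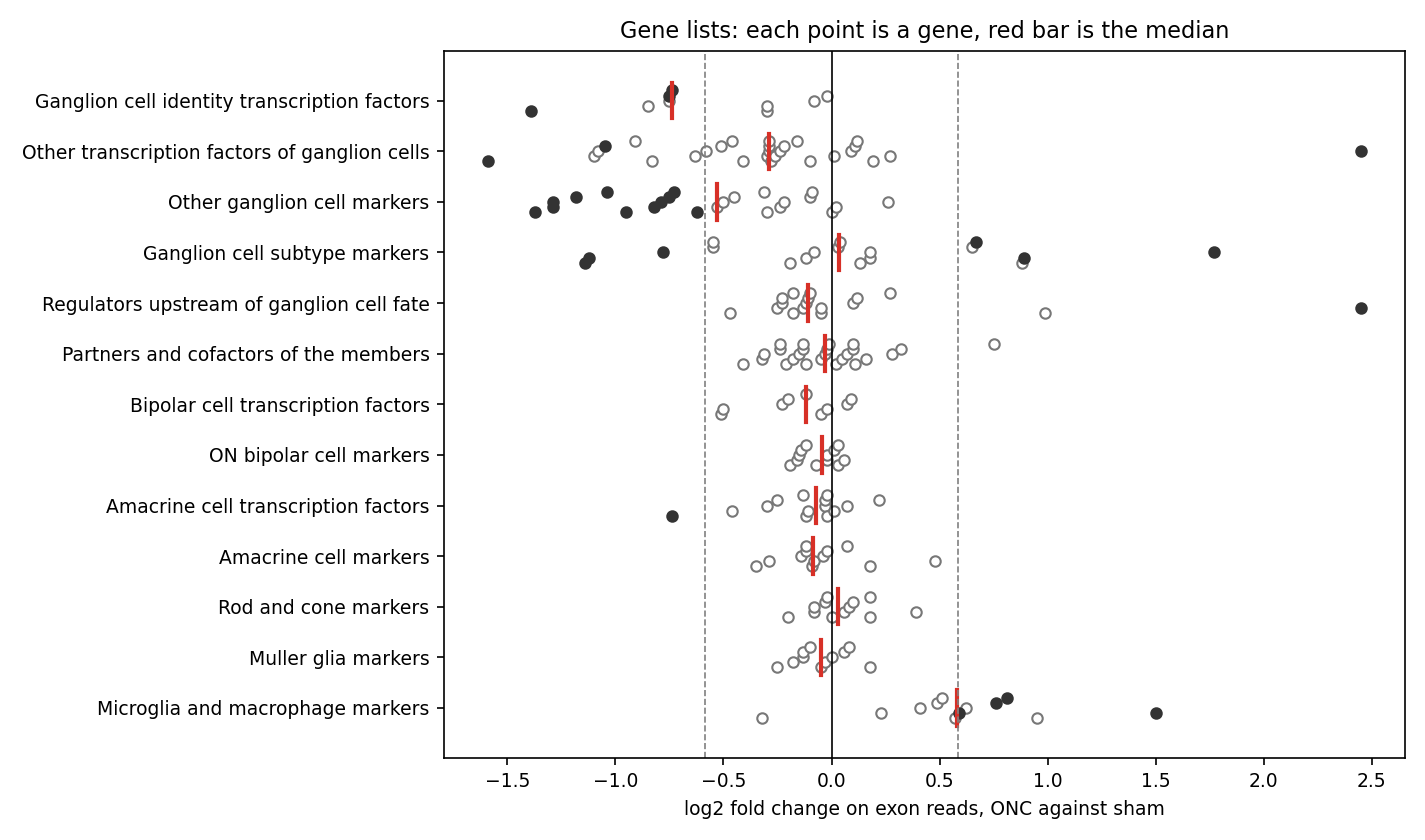
Log2 fold change on exon reads of each tested gene in 13 of the lists. Filled points are called, open points are not, red bars are medians and dashed lines mark 1.5-fold. The members have a median of -0.74 and other RGC markers one of -0.53, while microglia markers are at 0.58.

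Exon reads numbered 17343945 to 18349331 per sham sample and 20019818 to 20358008 per ONC sample, and exons held 70.9% to 76.6% of the reads on genes in sham and 78.5% to 80.4% in ONC. One sham library stood apart in genes that are strong marks of the crush. Sprr1a had 24 exon reads in sham replicate 1, against 0 and 3 in the others and 223 to 245 in ONC, and Mmp12 had 90, against 4 and 14, and 657 to 779 in ONC. Without sham replicate 1 the same 3 members were called, and the log2 fold changes were -0.70 for Pou4f1, -1.54 for Pou4f2 and -0.80 for Ebf1.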

How the data were processed

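RNA-seq of mouse retina was analysed from 3 ONC and 3 sham samples, grouped by the treatment label. The authors mapped read pairs with CLC Genomics Workbench and deposited, per gene and sample, counts of reads on exons and on whole genes (an intact pair counted as 1, not normalized) and RPKM values, which divide exon reads by exon length and by all reads on genes. The labels name mm9, but the gene positions in the files match GRCm38: start or end equals RefSeq GRCm38.p6 for 73.3% of 29908 shared symbols and GENCODE M1 on mm9 for 1.25% of 26177.

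The filter asked for a mean RPKM over 0.3 in one group or both. Total exon reads, and intron reads with a mean of at least 10 in a group, were tested in edgeR 4.0.16 (R 4.3.3; TMM, then glmQLFit and glmQLFTest) on condition alone. SE is the log2 fold change over the square root of F, and intervals are 95%. All exon reads on the members were uniquely mapped. For ratios of RPKM an exact permutation test was used, whose smallest p is 0.1 here. The scripts were tested on simulated data.

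The members, the lists and the rule for the genes named were chosen with earlier results of these data known. Named were all members, in each list and direction up to 3 called genes of largest change whose groups did not overlap in RPKM, 4 defining RGC markers, the 2 most abundant genes of each cell type list whose sum moved without overlap (not reported here for rods and cones), and 3 genes of most similar pattern for each called member. Irx1, Irx3, Irx5, Irx6, Sox4, Cd68, Tfap2b, Pax6, Hipk2, Tcf4, Barhl2, Sprr1a and Mmp12 were added after their values were seen. Alternatives were other library scalings, DESeq2 1.42.0, limma 3.58.1 on log2 RPKM with pseudocounts of 0.1 and 1, other filters, unique or whole-gene reads, a replicate block, other thresholds and leaving out each sample. Python 3.11.15, scipy 1.17.1 and matplotlib 3.10.9 were also used.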

Additional observations from a re-analysis of the deposited data

How the results depend on the processing

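The count of 3 members called lower became 1 with limma on log2(RPKM + 1) and 5 without a filter on RPKM, where Isl2 and Tbr1 were added, and it ran from 2 to 4 when 1 library was left out. No member was called higher in any setting, and none was called on intron reads. Ebf3 and Eomes were not called in any of 18 alternatives, while the adjusted p of Ebf3 alone was 0.1 or more in 8 of them (0.0217 to 0.309). Values near 0 changed sign: Pou4f3 was at 0.05 with all reads on genes as library size, 0.06 and 0.03 with limma at pseudocounts of 0.1 and 1, and -0.47 to 0.19 without 1 library. Isl1 was at 0.10 with all reads on genes and with both limma fits, 0.00 with the sum of exon reads, 0.02 with reads on whole genes, and -0.06 to 0.02 without 1 library. The ratio of Pou4f1 to Rbpms ran from -0.03 to 0.20 and that of Ebf1 to Rbpms from -0.09 to 0.27 without 1 library. The cause was not tested. Over all genes, whole-gene reads gave 236 lower and 113 higher calls, limma gave 47 and 136 at the pseudocount of 0.1 and 34 and 113 at 1, all reads on genes as library size gave 87 and 263, and the main setting 114 and 113. Intron calls were 298 lower and 69 higher, 1246 and 32 with exon library sizes and 781 and 173 without a filter, and lower calls on intron reads over all genes ranged from 0 to 721 without 1 library.

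The replicate number as a block left 3 members called lower and did not pair the samples: the correlations of same-numbered samples were -0.0474, -0.0333 and 0.00261. With the block Ebf3 had an adjusted p of 0.102 (edgeR's quasi-likelihood test) and C1qa lost its call at 0.108. Among the genes followed through the alternatives that are not members, a call was lost without 1 library for C1qa, Cryaa, Fstl4, Irx4, Itgam, Opn4, Spp1, Ssh1, Trhr and Zbtb20. Depth limits Atoh7. For Pou4f3 the CV between samples was 37.5% in sham and 39.1% in ONC, where counting alone gives 17% and 16.2%, and for Tbr1 24.5% and 23.1%, where counting gives 11.3% and 14.1%.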
